A study of Rattus norvegicus with 4 samples.

Results

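The features described here are the 117 array features whose deposited log ratio was negative on all 4 arrays of growth hormone treatment and averaged at most -0.3 at 48 h and at 24 h. They were selected on these ratios themselves, out of 1204 features with a value on all 4 arrays and 6240 on the array, which is 9.72% of those with 4 values. The cells were rat hepatocytes in primary culture, the metabolic cells of the liver taken from the animal. Cultures treated with bGH, which commonly stands for bovine growth hormone, at 100 ng/ml for 48 h or for 24 h were set against untreated cultures harvested at the same time. Treated and untreated RNA lay together on 2-channel arrays, so each feature gave a ratio, with 2 arrays at 48 h and 2 at 24 h. All cultures, untreated ones included, grew on commercial matrigel, a basement membrane extract. Their Williams E medium held added vitamin C and insulin, which is called high in the labels at 24 h only.

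At 48 h the treated RNA was in channel 2 on the second array, and at 24 h on the first, while the remaining pair had it in channel 1. The labels name the dye Cy3 for the treated RNA on both 48 h arrays, while at 24 h the dyes were exchanged. The sources used here do not say which channel is the numerator, or whether the authors turned any ratio. A negative ratio therefore cannot be read as a lower RNA level in treated cells, and the part of a dye bias in these ratios was not tested. Read as unturned ratios of channel 2 to channel 1, the columns give 0 features that meet the rule. The log base is unknown as well, and the ratios are treated as log2 values. First and second only name the arrays. Each array is 1 deposited column, and whether a column averages several hybridisations is not stated. The labels speak of different batches of cells, of the same batch, and of 4 biological replicas, without tying them to arrays, so a p-value here measures the spread between arrays only, which may be technical.

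Growth hormone reaches hepatocytes from the pituitary and binds a receptor of the cytokine receptor family, which signals through the kinase JAK2 and the transcription factor STAT5. In rat liver it is known to raise some genes, among them that of the circulating growth factor Igf1, and to lower others, and its pattern of release sets much of the difference between male and female liver. Which of these genes the features stand for is unknown here, because the file names features by array ID alone. None of the 117 IDs, and none of the 6240, matched a symbol, synonym or accession of the rat RefSeq gene table (GRCr8). No feature is given a gene name, a role or a sequence for that reason.

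The size of the negative ratios varied widely among the 117 features. The mean over 4 arrays had a median of -0.76 and lay between -2.67 and -0.32, which is a 1.69-fold ratio at the median and 6.38-fold at the extreme if the base is 2. It was at or below -2 for 4 features, between -2 and -1 for 33, between -1 and -0.5 for 59 and above -0.5 for 21. Over all 1204 features the median was 0.014. The median mean ratio of the 117 was -0.61 at 48 h and -0.85 at 24 h. These values chose the features, so they are a description and carry no test.

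The lowest mean ratios were those of 4 features. RGIAE86 had ratios of -2.08 and -0.066 at 48 h and of -6.63 and -1.92 at 24 h. RGIAV22 had -3.50 and -0.29 at 48 h and -3.94 and -1.91 at 24 h. Both had their lowest ratio at each time on the first array and were nearest 0 on the second 48 h array. RGIAP58, by contrast, had -3.37 and -3.57 at 48 h and -1.67 and -1.64 at 24 h. RGIAI10 had -2.93 and -3.15 at 48 h and -2.26 and -1.75 at 24 h. For RGIAP58 and RGIAI10 both 48 h ratios lay below both 24 h ratios, and for RGIAP58 the arrays of each time also lay close together. The means over 4 arrays were -2.67 ± 2.79 for RGIAE86 and -2.41 ± 1.66 for RGIAV22, against -2.56 ± 1.05 for RGIAP58 and -2.52 ± 0.64 for RGIAI10 (SD, n = 4 arrays). Means of nearly the same size thus came with very different scatter, and RGIAE86 had the largest SD of the 117. This SD also holds the difference between the times. Within a time the SD was 1.42 at 48 h and 3.33 at 24 h for RGIAE86, and 2.27 and 1.44 for RGIAV22. It was 0.14 and 0.017 for RGIAP58, and 0.16 and 0.36 for RGIAI10 (n = 2 arrays each).

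The next 8 features by mean ratio were as mixed. RGIAJ86 was at -2.08 and -1.16 at 48 h and at -2.05 and -1.59 at 24 h, at or below -1 on every array. RGIAG08 was at -2.02 and -0.90 at 48 h and at -2.34 and -1.50 at 24 h. RGIAL27 was at -2.17 and -0.39 at 48 h and at -0.87 and -3.05 at 24 h. It differed from the others in having its lowest ratio on the second 24 h array, where RGIAJ86 and RGIAG08 were nearer 0 than on the first. RGIAX15 had -1.68 and -0.19 at 48 h and -2.37 and -1.86 at 24 h. RGIAV36 had -2.86 and -0.19 at 48 h and -2.28 and -0.74 at 24 h. RGIAK44 had -1.54 and -0.28 at 48 h and -2.20 and -1.56 at 24 h. All 3 were below -1 on the first array of each time and above -0.3 on the second 48 h array. RNABV77 was at -0.20 and -0.57 at 48 h and at -3.75 and -1.42 at 24 h. RNABM65 was at -1.003 and -0.48 at 48 h and at -2.41 and -1.62 at 24 h. In both, every 24 h ratio lay below every 48 h ratio.

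**Figure D1:**
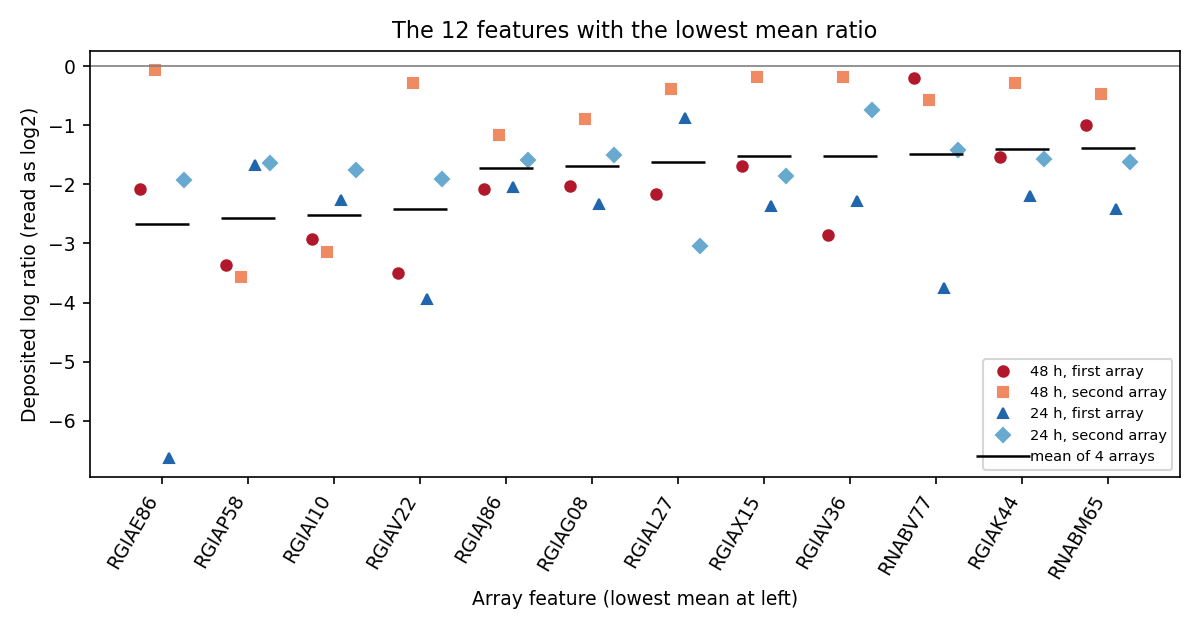
The deposited log ratios (y axis, read as log2) of the 12 features with the lowest mean, with 1 symbol per array, those of 48 h left of those of 24 h, and a bar at the mean of the 4 arrays. RGIAE86 runs from -6.63 to -0.066, while RGIAP58 and RGIAI10 have no ratio above -1.64.

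At or below -1 on every array were 5 features. Besides RGIAP58, RGIAI10 and RGIAJ86 these were RGIAE78 and RGIAG61, named after their values were seen. RGIAE78 had ratios of -1.50 and -1.23 at 48 h and of -1.22 and -1.47 at 24 h. RGIAG61 had -1.35 and -1.02 at 48 h and -1.15 and -1.04 at 24 h. Both were nearly level across times, with means of -1.35 ± 0.15 and -1.14 ± 0.15 (SD, n = 4 arrays each). At or below -0.5 on every array were 23 of the 117 features, and at or below -0.3 on every array 59, or 50.4%.

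The ratios of a single feature scattered over the arrays of both times by a median SD of 0.38, with the range between its highest and lowest ratio at a median of 0.83. The SD reached the size of the mean for 2 features, RGIAE86 and RNABV77. The widest ranges were those of RGIAE86 (6.56), RGIAV22 (3.66) and RNABV77 (3.55), followed by RGIAJ72 (2.67), which had -0.20 and -0.52 at 48 h and -2.88 and -1.61 at 24 h. Its 24 h ratios all lay below its 48 h ratios. The narrowest ranges belonged to features of small ratios. RNABM51 was at -0.33 and -0.42 at 48 h and at -0.42 and -0.33 at 24 h, a range of 0.092. RNABL55 was at -0.54 and -0.54 at 48 h and at -0.39 and -0.42 at 24 h. RGIAQ32 was at -0.33 and -0.27 at 48 h and at -0.45 and -0.39 at 24 h. The last, RNABV27, was at -0.46 and -0.41 at 48 h and at -0.61 and -0.56 at 24 h. In these 4, the 4 arrays gave nearly equal ratios of modest size.

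The 4 arrays did not contribute equally. The median ratio of the 117 features was -0.89 and -0.39 on the 48 h arrays and -1.09 and -0.74 on the 24 h arrays. The first 24 h array held the lowest of the 4 ratios for 60 features (51.3%) and the second 48 h array the ratio nearest 0 for 81 (69.2%). These are the arrays with the treated RNA in channel 2. The amplitude of the arrays moved with this, since the SD of the ratios over all 1204 features was 0.63 and 0.42 on the 48 h arrays and 0.84 and 0.57 on the 24 h arrays. By rank among the 1204 features, the 117 had a median percentile of 8.22 and 11.2 on the 48 h arrays. On the 24 h arrays it was 9.55 and 9.30. The rule asked for a negative ratio on every array, so these ranks do not show that the arrays were alike. Ranks on arrays left out of the choice, given below, set the second 48 h array apart, with a median percentile of 30.5. The part of array amplitude in the single values was not tested beyond the rescalings given below.

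**Figure D2:**
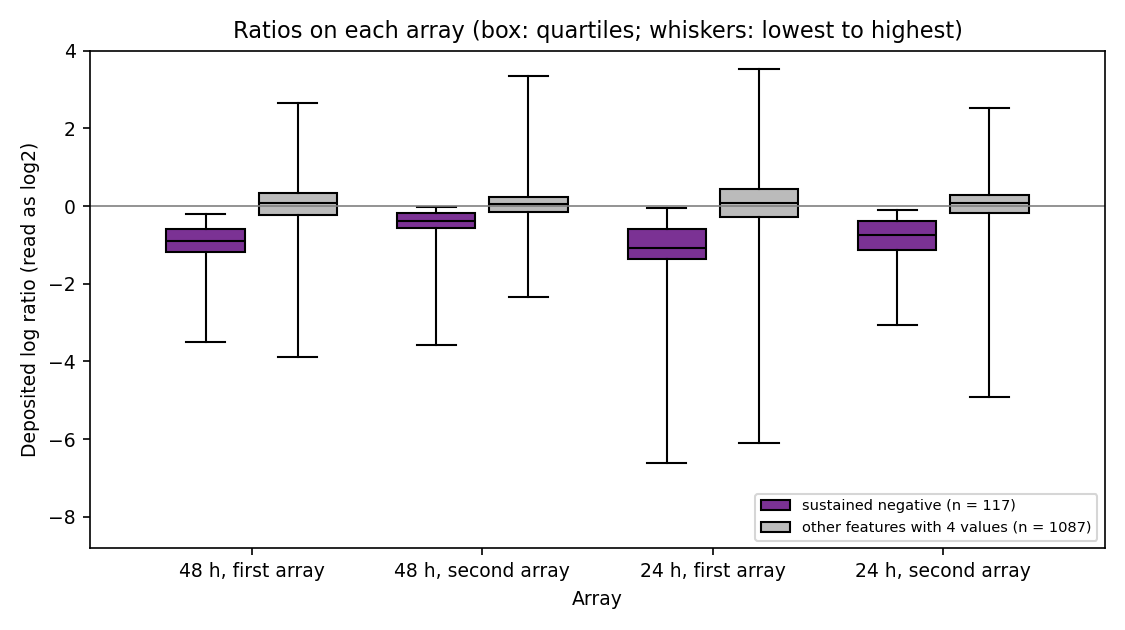
Deposited log ratios (y axis, read as log2) on each array, for the 117 features with sustained negative ratios and for the other features with 4 values. Boxes show quartiles and median, and whiskers run to the lowest and highest feature; the medians of the 117 are -0.89, -0.39, -1.09 and -0.74 from left to right.

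On the second 48 h array 49 of the 117 features lay between -0.3 and 0. Their median was -0.17 there, against -0.74 on the first 48 h array and -0.99 and -0.49 on the 24 h arrays. The other 68 features had a median of -0.54 on the second 48 h array, -1.01 on the first, and -1.15 and -0.84 at 24 h. The features nearer 0 on that array thus also had smaller ratios on the other 3. Across the 117 features the second 48 h array correlated with the first 24 h array by Pearson's r = 0.063, while the first 48 h array correlated with the first 24 h array by r = 0.46. The arrays of a time correlated by r = 0.49 at 48 h and r = 0.54 at 24 h. By rank (Spearman's rho) the value was lower at 48 h, 0.26, and was 0.49 at 24 h. By rank the first 48 h array correlated with the first 24 h array by 0.45. The second 48 h array correlated by rank with the first 24 h array by 0.057. These values describe 117 features that share the same 4 arrays and were cut off at 0 by the rule.

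The comparison that the choice of features did not use is that between the times. In the limma fit on all 1204 features, 0 of the 117 passed an adjusted p of 0.05 for 48 h minus 24 h, and 0 of all features did (0.0%). The smallest adjusted p was 0.16, shared by RGIAP58, RGIAE94, RGIAE96 and RGIAG31. RGIAE96 and RGIAG31 were not among the features to be named and are given for this tie; both were less negative at 48 h, by 1.58 and 1.60. RGIAP58 was the more negative at 48 h, with a difference of -1.81 ± 0.25 (SE). RGIAE94 was the less negative at 48 h, by 1.73 ± 0.26 (SE), with ratios of -0.38 and -0.36 at 48 h and of -2.24 and -1.96 at 24 h. In RGIAP58 and RGIAE94 the arrays of a time lay within 0.3 of each other and the times did not overlap. At an unadjusted p under 0.05, 11 of the 117 features were less negative at 48 h and 3 more negative, where 4.49% and 2.08% of all features were higher and lower at 48 h. Because every ratio had to be below 0 and each time mean at most -0.3, the differences are bounded, and 0 passing features do not show that the times were alike. The median SE of a difference among the 117 was 0.31.

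The features with the most extreme differences show both directions. After RGIAP58, the lowest differences were those of RGIAJ92 (-1.07 ± 0.29, SE), RGIAI10 (-1.03 ± 0.29) and RGIAV48 (-0.68 ± 0.29). RGIAJ92 had ratios of -1.82 and -1.41 at 48 h and of -0.73 and -0.35 at 24 h. RGIAV48 had -1.42 and -1.06 at 48 h and -0.36 and -0.77 at 24 h. In each of these the 48 h ratios all lay below the 24 h ratios. The highest differences were those of RGIAE86 (3.20 ± 1.52, SE), RNABV77 (2.20 ± 0.74), RGIAJ72 (1.88 ± 0.45) and RGIAE94. Only without the second 24 h array did any of the 117 pass: RGIAE86 at 5.55 (limma adjusted p = 0.048) and RNABV77 at 3.37 (limma adjusted p = 0.024). Both differences then rested on a single 24 h ratio, of -6.63 for RGIAE86 and of -3.75 for RNABV77.

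Most of the 117 features were nearer 0 at 48 h than at 24 h, but the count changed with array scaling and with single arrays. The difference was positive for 83 features (70.9%), against 48.2% of all 1204, with a median of 0.19, against -0.014 over all features. All 1204 hold ratios of both signs, so a positive difference does not mean nearer 0 for them. The 101 features of the mirror rule, described below, had a median difference of -0.094, which for positive ratios is also towards 0 at 48 h. Both 48 h ratios lay above both 24 h ratios for 33 of the 117, where 17.0% of all features did so, and below both for 12, where 18.6% did. After scaling the arrays to equal median absolute deviation the difference was positive for 67 of the 117 features, with a median of 0.051. After quantile normalization it was positive for 57 and the median was -0.015. Without the second 48 h array it was positive for 57, and without the first 24 h array for 62. Without the first 48 h array it was positive for 99, with a median of 0.48, and without the second 24 h array for 89, with a median of 0.32. No direction between the times is therefore given for the 117 features as a group.

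**Figure D3:**
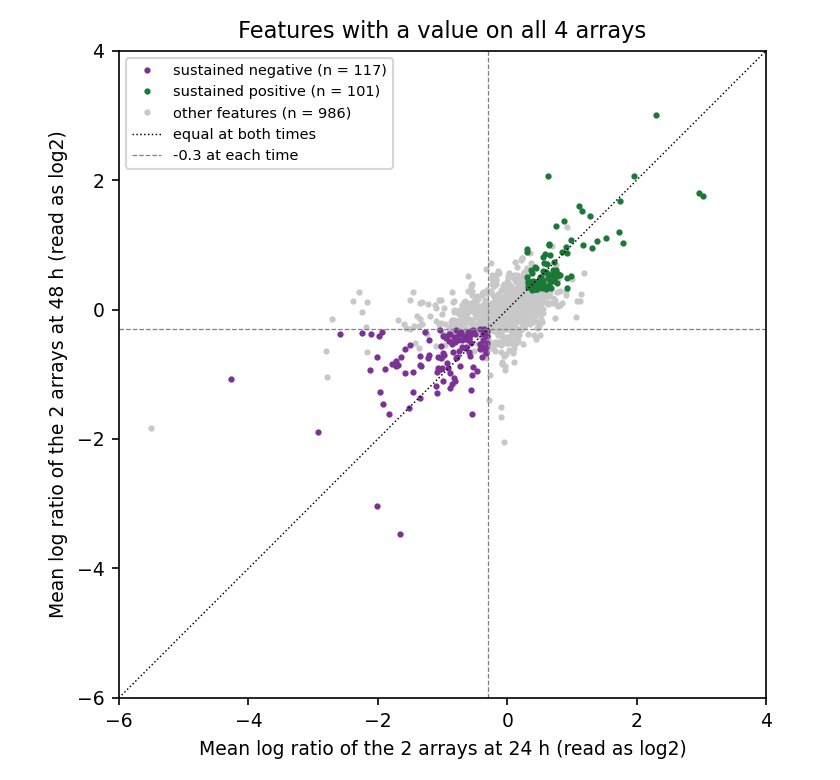
Mean log ratio at 48 h (y axis) against 24 h (x axis), both read as log2, for the 1204 features with 4 values, with dashed lines at -0.3 and a dotted line where both times are equal. The 117 features with sustained negative ratios fill the lower left corner, 83 of them above the dotted line, and the 101 with sustained positive ratios the upper right.

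By mean ratio at each time, 12 of the 117 features were at or below -1 at both times, 8 at 48 h alone, 32 at 24 h alone and 65 at neither. The 8 at 48 h alone were RGIAJ92, RGIAA64, RGIAL83, RNABM32, RGIAG82, RNABY28, RGIAV48 and RGIAK83, named after their values were seen. In the limma tests against 0, which the rule used, 4 of the 117 features passed at 48 h with a negative ratio, where 0.498% of all features did. At 24 h 29 passed, where 3.65% of all did, and over both times 54, where 5.48% did. The features that passed at both single times were RGIAP58, RGIAI10 and RGIAE78. Nothing is read from these counts, since the same ratios chose the features. They also moved with the processing: at 48 h between 0 and 17 features passed under the other settings, and at 24 h between 0 and 29.

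The rule can be split so that arrays outside the choice are read. Of the 1204 features, 196 had both 48 h ratios below 0 with a mean of at most -0.3, or 16.3%, and 300 met the same condition at 24 h, or 24.9%. Of the 300 chosen at 24 h, 117 (39.0%) met the condition at 48 h and 162 (54.0%) had both 48 h ratios below 0, where 30.3% of all features had that. The median 48 h mean of these 300 was -0.28, against 0.00093 over all features. Of the 196 chosen at 48 h, 117 (59.7%) met the condition at 24 h and 139 (70.9%) had both 24 h ratios below 0, where 32.0% of all features had that. Their median 24 h mean was -0.51, against 0.046 over all features. The arrays share the treatment and may share batches of cells, and a dye bias was not tested, so these shares describe the arrays only.

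A single array was also left out of the choice, and the other array of that time then had to meet -0.3 alone. The arrays differ in amplitude, so these choices were not equally strict and their shares are not like for like. With the first 48 h array left out, 78 features met the rule on the other 3 arrays. On the array left out 73 of these (93.6%) were below 0 and 65 (83.3%) at or below -0.3, against 48.6% and 26.8% of all features. With the second 48 h array left out, 199 features met the rule on the others. Of these 133 (66.8%) were below 0 on it and 65 (32.7%) at or below -0.3, against 590 and 193 of all 1204 features. That array thus removed the largest number of features, and the median of the 199 on it was -0.15. With the first 24 h array left out, 104 of 111 features (93.7%) were below 0 on it, with a median of -1.03, against 48.3% of all features. With the second 24 h array left out, 115 of 125 (92.0%) were below 0 on it, with a median of -0.69, against 45.5% of all features. The features chosen on 3 arrays were therefore mostly negative on the remaining array, and least often on the second 48 h array. By rank among all 1204 features, their median percentile on the array left out was 7.31 and 30.5 at 48 h. At 24 h it was 10.4 and 10.5. The second 48 h array had the smallest amplitude, but the scale of an array changes neither its ranks nor its share below 0. It does change how strict a choice is.

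**Figure D4:**
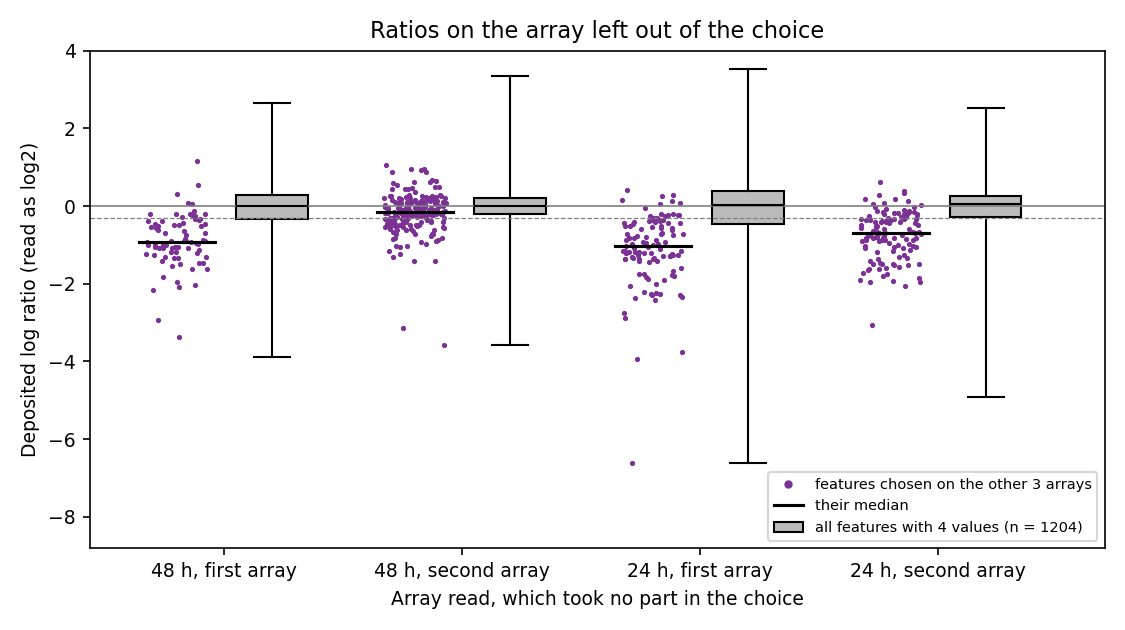
Log ratios (y axis, read as log2) on the array that took no part in the choice, for the features that met the rule on the other 3 arrays (points, with their median as a bar), beside all 1204 features (box, quartiles with whiskers to the extremes). The medians of the chosen features are -0.93, -0.15, -1.03 and -0.69 from left to right, and those of all features lie between 0.0071 and 0.042.

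The thresholds cut through a continuous run of values. Just inside the limit at 48 h were RGIAQ32, RNABB43 and RGIAE75, with 48 h means of -0.301, -0.303 and -0.311. Just outside it were RNABK10, RNABO79 and RGIAQ06, with -0.299, -0.296 and -0.296. Just inside the limit at 24 h were RGIAJ42, RGIAE54 and RGIAF54, with 24 h means of -0.306, -0.314 and -0.318. Just outside it were RNABU61, RGIAF04 and RNABF94, with -0.296, -0.291 and -0.288. The last of these had ratios of -0.87 and -1.91 at 48 h, so a feature strongly negative at 48 h was left out by its 24 h mean. Nearest to 0 on any array among the 117 were RGIAC85 (-0.025) and RGIBC71 (-0.028), both on the second 48 h array, and RNABB43 (-0.045) on the first 24 h array. The features left out by the smallest ratio at or above 0 were RNABF77 (0.0039), RGIAG16 (0.032) and RNABM35 (0.032). Among the 1204 features 30 met both limits on the means but had a ratio of at least 0 on some array, and for 23 of them this was so on the second 48 h array.

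The mirror image of the rule, with all ratios above 0 and both time means at least 0.3, was met by 101 features (8.39%). The mean over 4 arrays had a median of -0.76 and a lowest value of -2.67 for the 117 negative features, against a median of 0.58 and a highest value of 2.65 for the 101 positive ones. The median SD over the 4 arrays was 0.38 for the negative and 0.31 for the positive features. The highest means among the positive features were those of RNABT12, with ratios of 2.65 and 3.35 at 48 h and 2.43 and 2.17 at 24 h, and of RNABK02, with 2.36 and 1.15 at 48 h and 3.53 and 2.52 at 24 h. Turning all signs, which the unstated numerator allows, exchanges the 117 and the 101. The extreme means over 4 arrays were thus of similar size, but that of -2.67 belonged to RGIAE86, with an SD of 2.79. By other values the negative side reached further. The lower quartile of the means over 4 arrays was -1.09 for the negative features, against an upper quartile of 0.72 for the positive ones. The lowest 24 h mean was -4.27, against a highest of 3.03. The lowest single ratio was -6.63, against a highest of 3.53. Both of these lowest values were again those of RGIAE86.

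The IDs give the position of the features in the set. Each consists of a letter code shared by 96 features and a number from 1 to 96, and there are 65 codes. The code and number look like a plate and its well, which the sources used here do not state, so a code is called an ID block. The 117 features came from 44 of the 65 blocks, 1 each from 19 of them. By the first letters, 81 were among the 708 features starting with RGI (11.4%), 36 among the 489 starting with RNA (7.36%) and 0 among the 7 starting with MKA. The 101 positive features were 45 of the 708 (6.36%), 52 of the 489 (10.6%) and 4 of the 7. In the values as deposited, features meeting the rule thus outnumbered those meeting its mirror among RGI features, and the reverse held among RNA features. This counts only features that met either rule. The median mean ratio of all measured features was near 0 in both, at -0.015 for RGI and 0.055 for RNA. Features of a block may share shifts, so no test of these shares is given.

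The blocks RGIAE and RNABM held the most. RGIAE had 14 of its 53 measured features (26.4%) among the 117 and RNABM 8 of its 40 (20.0%), and no other block had more than 6. The 14 of RGIAE were RGIAE86, RGIAE78, RGIAE72, RGIAE94, RGIAE96, RGIAE25, RGIAE59, RGIAE66, RGIAE56, RGIAE63, RGIAE41, RGIAE91, RGIAE75 and RGIAE54 in order of their means, which ran from -2.67 to -0.32. Of these, 12 had numbers above 48, as did 32 of the 53 measured features of the block. The remaining features of RGIAE were also shifted, with a median mean ratio of -0.23 once the 14 were left out, against 0.014 over all 1204 features. In RNABM the median of the remaining features was 0.031. Without RGIAE the RGI share was 67 of 655 (10.2%), and without RNABM the RNA share was 28 of 449 (6.24%).

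Centring each block on its own median per array, an alternative chosen after seeing the data, again gave 117 features by the rule, of which 94 were among the original 117. RGIAE then held 6 and RNABM 7. The RGI features numbered 73 of 708, against 81 before, and the RNA features 44 of 489, against 36 before. The gap between the RGI and RNA shares was thus smaller after centring. The count in RGIAE was also smaller after centring, and that in RNABM nearly the same. Consecutive numbers in a block occurred in 2 cases. RNABM65, given above, stood beside RNABM66, which had ratios of -1.24 and -0.48 at 48 h and of -1.87 and -1.50 at 24 h, a similar profile. RGIAJ86, also given above, stood beside RGIAJ85, which had -0.93 and -0.72 at 48 h and -1.19 and -0.67 at 24 h, nearer 0 than RGIAJ86 on every array and with another order of the arrays. The sources used here do not say whether neighbouring numbers hold the same gene.

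**Figure D5:**
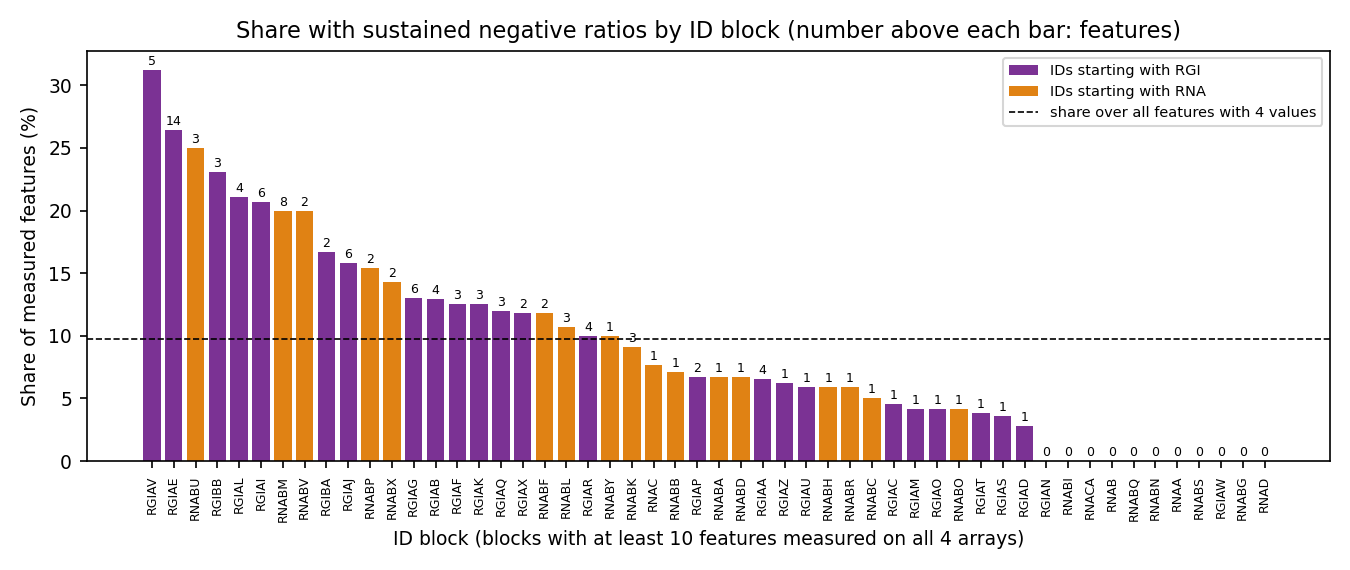
Share of the features measured on all 4 arrays that have sustained negative ratios (y axis, percent), for each ID block with at least 10 measured features (x axis), with the number of such features above each bar and a dashed line at the share over all blocks, 9.72%. RGIAE has the most, 14 of 53, and RGIAV the highest share, 5 of 16.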

How the data were processed

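Each array gave 1 column of log ratios, deposited by the authors and treated here as log2 values. The sources used here do not give the background correction, normalization, log base or numerator. Array intensities were not used here, so signal over background could not be judged. The number of arrays limits the precision. Samples were grouped by the time in their titles, and first and second follow accession order only. The values were used as deposited, neither turned nor rescaled. The fit took the 1204 features with all 4 values, in limma 3.58.1 under R 4.3.3 (lmFit, then eBayes, with a mean per time, 2 residual and 3.77 prior degrees of freedom), with two-sided tests and Benjamini-Hochberg adjustment over all 1204. The fit was tested on simulated data with independent noise of equal spread on all arrays of a feature. That setting held no dye bias, shared batch or difference in array amplitude, so it says nothing of those in these data. Shares and counts were computed in Python 3.11.15.

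The features and the rule for naming them were chosen with earlier results of these data known. Named were the 12 lowest means, the 4 lowest and 4 highest differences between times, the 4 largest and 4 smallest ranges, the 3 features on each side of each threshold, consecutive numbers, and the 2 highest mirror features. Gene lists could not be applied without gene names. The closing section gives the alternatives.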

Additional observations from a re-analysis of the deposited data

Results flagged for a closer look

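Features without a value on every array took no part in the report. Of 1012 features with a value at each time but not on all 4 arrays, 85 (8.4%) met the rule on the values present. They were left out by definition, for want of a value. Among the 1204 features with 4 values the share was 9.72%. The mirror rule was met by 50 of the 1012 (4.94%). Of the 85 features, 70 had no value on the first 24 h array. RNAD22 had the lowest mean, with a ratio of -2.34 at 48 h and of -1.37 at 24 h, each from the second array. With fewer values the rule is easier to meet, so the shares are not comparable.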

How the results depend on the processing

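The number of features meeting the rule was 117. It was 158 with time means of at most -0.2 and 63 with at most -0.5. After median centring, equal median absolute deviation and quantile normalization it was 130, 118 and 125. When 1 array per time sufficed it was 202. With the columns read as channel 2 over channel 1 it was 0, which for the 117 was fixed in advance. Leaving out 1 array in turn, over the features with values on the other 3, gave 79 (without the first 48 h array) to 199 (without the second). Calls among the 117 for 48 h minus 24 h numbered 0 and, with 1 array left out, 0 to 2, against 14 at an unadjusted p under 0.05. Calls over both times numbered 54, 35 with a channel term, and 3 (without the first 48 h array) to 70 with 1 array left out; at an unadjusted p under 0.05 there were 114. A fit on 3 arrays assumes that the lone array varies as the pair at the other time does. Of 232 refitted values of the features named for their mean or difference, 4 lost and 20 gained a call and 0 changed direction, which the rule favours for the means. That 0 was largely fixed in advance, since leaving out an array cannot turn a mean of negative ratios. Array weights, the channel term, robust moderation and 1 array per time left the estimates unchanged. Each time had the treated RNA once in each channel, so the channel term could not move a time mean. The median SE of the mean over both times was 0.196 with it, against 0.145, over all features. The 35 calls therefore do not measure a dye bias. The cause of the moves in calls was not tested. No paired analysis was possible because the labels give the arrays of the times no shared replicate numbers. A filter on low signals needs intensities and was not run.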
